A study of Homo sapiens with 8 samples.

Results

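RNA-seq libraries of human leukaemia cells sorted from mouse bone marrow were compared by diet, 2 from animals on a ketogenic diet and 2 from animals on a standard diet, 4 of the 8 libraries in the series. They were chosen by their titles, which share the batch code JE558, and by their diet label. The cells were MOLM14, an acute myeloid leukaemia line labelled FLT3-ITD and MLLr, that is, with an internal tandem duplication in the receptor kinase FLT3 and a rearranged MLL gene. All 8 libraries came from mice engrafted with this line in what the series calls the CLDX model. Each diet was given for 3 weeks, and each diet had 1 library from animals given gilteritinib, an FLT3 inhibitor, and 1 from animals given vehicle, for 1 week. The groups were therefore ketogenic diet with gilteritinib, ketogenic diet with vehicle, standard diet with gilteritinib and standard diet with vehicle, with 1 library each. The labels do not give the number of animals behind a library, and no group has a replicate. The p-values therefore set the diet effect over both drug arms against a spread. For each gene that spread rests on how far the diet ratio under gilteritinib differs from that under vehicle, and it is shared across genes. That spread may be technical, and it is not a spread between animals of a group. Marrow cells had been sorted for human CD45, and the other 4 libraries, of batch JE590, were labelled as whole liver extract holding mouse and human cells.

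A ketogenic diet is high in fat and low in carbohydrate, and the liver turns the fatty acids it receives into ketone bodies that other tissues can burn. In many cell types free fatty acids bind the nuclear receptors of the PPAR family, which switch on genes for fatty acid import into mitochondria, beta-oxidation and the sparing of glucose. Low insulin and abundant dietary fat lower the transcription of lipid synthesis genes in liver, and a glucose-sensing pair of factors, MondoA and ChREBP, adjusts genes such as ARRDC4 and TXNIP to sugar supply. These points are background from other tissues and were not measured here.

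In the sorted marrow cells, 5 of 28 tested genes of fatty acid oxidation were higher on the ketogenic diet and 23 were not called, and the fatty acid desaturase SCD and the glucose uptake genes SLC2A1 and HK2 were lower. Of 14029 genes tested, 69 were called, which is 0.492% (edgeR quasi-likelihood test with drug as a covariate, Benjamini-Hochberg adjusted p under 0.05, levels in counts per 1e6 counts, CPM). Of these, 48 were higher on the ketogenic diet, or 0.342% of the genes tested, and 21 were lower, or 0.15%. With RLE scaling (the size factors of DESeq2) the split was 35 higher and 7 lower. The median log2 fold change over all tested genes was 0.0031, and 1306 genes had an unadjusted p under 0.05.

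Each diet ratio could be read once under gilteritinib and once under vehicle. All 69 called genes lay on the same side in both drug arms, which a fit that averages the arms favours, so this only describes them. For 50 of the 69 the ratio was larger in size in the gilteritinib arm and for 19 in the vehicle arm. No such count over all tested genes was made, so this need not be particular to the called genes. Among the 6950 genes whose log2 CPM averaged 4 or more, 10 lay 2-fold or more apart in the gilteritinib arm and 3 in the vehicle arm. The 4 libraries leave 1 residual degree of freedom, so the test leans on the spread shared across genes. When all 8 libraries entered 1 fit, with a drug and a diet term for each label, 22 genes were called. Leaving 1 marrow library out of that fit leaves the diet ratio of 1 drug arm, and then 12 genes were called without ketogenic diet with gilteritinib, 11 without standard diet with gilteritinib, 134 without ketogenic diet with vehicle and 135 without standard diet with vehicle. SLC25A20, PDK4, CPT1A, SCD, IMPA2 and FCGRT were called in all 4 of these fits, and the other 63 called genes missed the threshold in at least 1 of them.

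**Figure D1:**
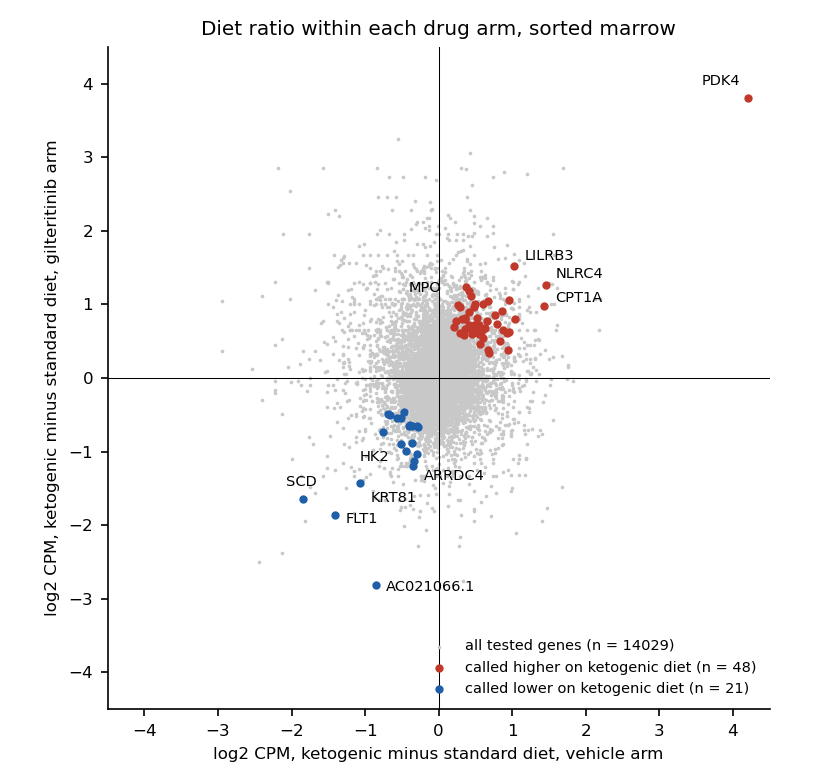
Difference in log2 CPM between ketogenic and standard diet in the gilteritinib arm (vertical axis) against that in the vehicle arm (horizontal axis), 1 point per tested gene, with the 48 genes called higher in red and the 21 called lower in blue. All called genes sit in the upper right or the lower left quadrant, with PDK4 far out at the upper right, at 3.81 in the gilteritinib arm and 4.20 in the vehicle arm.

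The library totals were 20783534 counts for ketogenic diet with gilteritinib, 16290265 for ketogenic diet with vehicle, 15557885 for standard diet with gilteritinib and 33611830 for standard diet with vehicle. All 13 markers of the leukaemia line had counts in each marrow library. Their sum was 6674 CPM (gilteritinib) and 3830 CPM (vehicle) in ketogenic libraries, against 6183 CPM (gilteritinib) and 3684 CPM (vehicle) in standard libraries. Without LYZ, the top member, the ketogenic libraries summed to 2148 CPM (gilteritinib) and 1973 CPM (vehicle). The standard libraries then summed to 2327 CPM (gilteritinib) and 2021 CPM (vehicle), so the direction was reversed in each drug arm. Markers of other cell types were counted on human genes, where carried-over mouse cells would not be seen. All 10 erythroid markers were at 0 in 3 of the 4 libraries. Lymphoid markers summed to 127 CPM (gilteritinib) and 97.5 CPM (vehicle) on the ketogenic diet, against 118 CPM (gilteritinib) and 86.0 CPM (vehicle) on the standard diet, with 4 to 7 of 13 at 0. Without NKG7 the lymphoid sum was 32.2 CPM (gilteritinib) and 21.1 CPM (vehicle), against 28.9 CPM (gilteritinib) and 19.5 CPM (vehicle). The sum of stromal and endothelial markers was 244 to 310 CPM on the ketogenic diet and 255 to 305 CPM on the standard diet, with 8 of 13 at 0, and the sum without PECAM1 was 4.23 to 11.96 CPM. Megakaryocyte markers summed to 8.66 to 10.7 CPM on the ketogenic diet and 11.2 to 12.2 CPM on the standard diet, and hepatocyte markers to 0.737 to 1.64 CPM against 1.46 to 1.54 CPM.

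Genes of fatty acid oxidation included 5 rises and no fall. Of 31 listed genes 28 were tested, 5 were called higher, none was called lower and 23 were not called. Over all tested genes 0.342% were called higher. The 5 called members were CPT1A, SLC25A20, ACADVL, ACAA2 and ECH1, which import fatty acids into mitochondria or act on them there. The list's median log2 fold change was 0.10, with 22 positive and 6 negative, beside 0.0031 over all genes. With library totals as scaling the median was 0.057, with 17 positive and 11 negative. In 14 of the 28 tested members the diet groups did not overlap, against 24.6% of all tested genes.

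CPT1A (ENSG00000110090, chromosome 11, 68754620 to 68844410, GRCh38), which couples long-chain fatty acids to carnitine at the outer mitochondrial membrane, had 66.8 CPM (gilteritinib) and 68.9 CPM (vehicle) in the ketogenic libraries, against 33.8 CPM (gilteritinib) and 25.4 CPM (vehicle) in the standard libraries. Both ketogenic libraries lay well above both standard ones, and the drug made little difference to the ketogenic level. Its log2 fold change was 1.22 (SE 0.13, edgeR adjusted p = 4.72e-09), and leaving out single libraries or changing the settings gave 0.98 to 1.45. The carrier that exchanges acylcarnitine for carnitine across the inner membrane, SLC25A20 (chromosome 3, 48856931 to 48898993), showed the same order. It had 55.5 CPM (gilteritinib) and 54.0 CPM (vehicle) on the ketogenic diet, against 31.9 CPM (gilteritinib) and 26.2 CPM (vehicle) on the standard diet, a log2 fold change of 0.93 (SE 0.12, edgeR adjusted p = 5.59e-06). CPT2, which reverses the CPT1A reaction inside the mitochondrion, was not called, at 27.5 CPM (gilteritinib) and 33.8 CPM (vehicle) against 25.6 CPM (gilteritinib) and 33.96 CPM (vehicle).

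Inside the mitochondrion, ACADVL, the dehydrogenase that opens the cycle on very long chains, had 317 CPM (gilteritinib) and 273 CPM (vehicle) in ketogenic libraries, against 205 CPM (gilteritinib) and 183 CPM (vehicle) in standard libraries. ACAA2, a thiolase that closes the cycle, had 70.1 CPM (gilteritinib) and 75.5 CPM (vehicle) against 38.7 CPM (gilteritinib) and 44.6 CPM (vehicle). The groups did not overlap for either gene, and the log2 fold changes were 0.60 (SE 0.10, edgeR adjusted p = 0.000594) and 0.81 (SE 0.12, edgeR adjusted p = 2.14e-05). ECH1, an isomerase needed for some unsaturated fatty acids, had 233 CPM (gilteritinib) and 184 CPM (vehicle) against 153 CPM (gilteritinib) and 126 CPM (vehicle), also without overlap (log2 fold change 0.58, SE 0.11, edgeR adjusted p = 0.00117). Members of the same pathway that were not called included the trifunctional protein subunits HADHA (0.11, SE 0.10) and HADHB (0.07, SE 0.11), the hydratase ECHS1 (0.04, SE 0.10) and the medium-chain dehydrogenase ACADM (-0.26, SE 0.11). DESeq2 also called all 5 of the called members.

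Of 35 PPAR receptors and targets 23 were tested, with a median log2 fold change of 0.11. None was called lower and 6 were called higher, against 0.342% of all tested genes. The 6 were the 5 oxidation genes above and PDK4 (chromosome 7, 95583499 to 95596491), a kinase that restrains the entry of pyruvate into the citric acid cycle. PDK4 had 23 reads (gilteritinib) and 36 reads (vehicle) in the ketogenic libraries, against 0 reads (gilteritinib) and 1 read (vehicle) in the standard libraries. The ratio of the summed counts, scaled for depth, was 82.6 with an exact 95% interval of 14.3 to 3318, which covers counting error only (edgeR adjusted p = 1.03e-05). ANGPTL4, a secreted inhibitor of lipoprotein lipase and a PPAR target in many tissues, was too low to test, with 2 reads (gilteritinib) and 4 reads (vehicle) against 0 reads in each standard library. PLIN2, which coats lipid droplets, had 32.2 CPM (gilteritinib) and 36.7 CPM (vehicle) against 23.1 CPM (gilteritinib) and 25.2 CPM (vehicle). The PLIN2 groups did not overlap, but it was not called (log2 fold change 0.51, SE 0.13, edgeR adjusted p = 0.0595).

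The receptors were not called, with log2 fold changes of 0.00 for PPARD (SE 0.14), -0.36 for PPARA (SE 0.23) and 0.03 for RXRA (SE 0.11), and PPARG had 0 reads in all 4 libraries. Other targets in the list that were not called included the fatty acid receptor CD36 (0.06, SE 0.13), the uncoupling protein gene UCP2 (0.03, SE 0.11) and ACSL1 (-0.28, SE 0.11), which activates long-chain fatty acids.

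**Figure D2:**
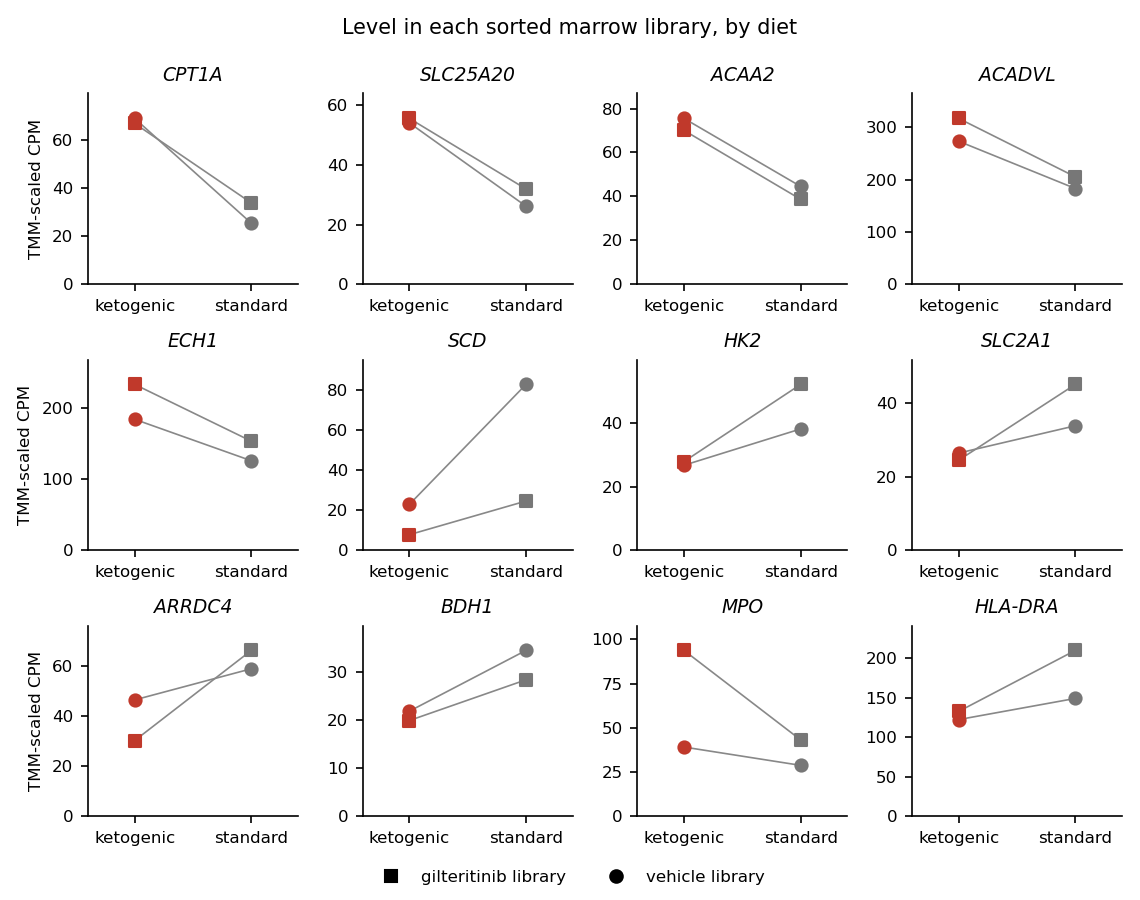
TMM-scaled CPM (vertical axes from 0) of 12 genes in the 4 sorted marrow libraries, with ketogenic libraries at left in red, standard libraries at right in grey, squares for gilteritinib and circles for vehicle, and lines joining libraries of the same drug. CPT1A, SLC25A20, ACAA2, ACADVL and ECH1 are higher in both ketogenic libraries than in either standard one, SCD, HK2, SLC2A1, ARRDC4, BDH1 and HLA-DRA are lower, and the MPO groups overlap.

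SCD (ENSG00000099194, chromosome 10, 100347124 to 100364834, GRCh38), the desaturase that makes monounsaturated fatty acids, had 7.85 CPM (gilteritinib) and 23.0 CPM (vehicle) in the ketogenic libraries, against 24.7 CPM (gilteritinib) and 82.9 CPM (vehicle) in the standard libraries. Both the diet and the drug went with lower levels, so the ketogenic library with vehicle lay just under the standard library with gilteritinib. The log2 fold change for diet was -1.77 (SE 0.14, edgeR adjusted p = 6.71e-13), and it was -1.64 within the gilteritinib arm and -1.85 within the vehicle arm. Among called genes averaging 2 or more on the log2 CPM scale, no other fell as far.

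The 23 other tested members of the list of fatty acid synthesis and desaturation were not called. Of the 24 tested, 21 had negative and 3 positive fold changes, with a median of -0.25 beside 0.0031 over all genes, and 21 or 22 were negative under the other scalings. FASN, the fatty acid synthase, had 79.0 CPM (gilteritinib) and 101 CPM (vehicle) against 95.6 CPM (gilteritinib) and 99.5 CPM (vehicle), a log2 fold change of -0.12 (SE 0.11). ACLY, which makes cytosolic acetyl-CoA, was at -0.24 (SE 0.11), the elongase ELOVL5 at -0.26 (SE 0.11) and the transcription factor SREBF1 at -0.09 (SE 0.13). None of 24 tested genes of cholesterol synthesis and uptake was called, at a median of -0.16 with 18 negative. In the list of lipid droplet, storage and uptake genes 1 of 26 was called, the acyltransferase GPAT3, which starts triglyceride synthesis. It had 20.1 CPM (gilteritinib) and 11.98 CPM (vehicle) on the ketogenic diet, against 28.4 CPM (gilteritinib) and 19.3 CPM (vehicle) on the standard diet, a fall of log2 fold change -0.59 (SE 0.15, edgeR adjusted p = 0.0461). GPAT3 was not called with limma-voom (adjusted p = 0.0843) or with RLE scaling. Its groups overlapped, with the lower level in the ketogenic library of each drug arm.

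SLC2A1 and HK2, which bring glucose into the cell and trap it there, were lower. Of 23 tested glycolysis genes 2 were called lower, against 0.15% of all tested genes, none higher, and the list median was -0.14. HK2 (chromosome 2, 74833981 to 74893359), an inducible hexokinase, had 27.8 CPM (gilteritinib) and 26.7 CPM (vehicle) in ketogenic libraries, against 52.0 CPM (gilteritinib) and 38.0 CPM (vehicle) in standard libraries. SLC2A1 (chromosome 1, 42925375 to 42959176), the glucose transporter GLUT1, had 24.4 CPM (gilteritinib) and 26.4 CPM (vehicle) against 45.0 CPM (gilteritinib) and 33.8 CPM (vehicle). For both genes the ketogenic libraries were nearly level and the groups did not overlap, with log2 fold changes of -0.71 (SE 0.13, edgeR adjusted p = 0.00121) for HK2 and -0.61 (SE 0.13, edgeR adjusted p = 0.0132) for SLC2A1. DESeq2 called HK2 but not SLC2A1 (adjusted p = 0.263). The enzymes further down the pathway were not called, with log2 fold changes of -0.08 for GAPDH, -0.15 for ENO1, -0.17 for PKM and -0.14 for LDHA.

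ARRDC4 (chromosome 15, 97960698 to 97973838), an arrestin-like protein whose transcription follows glucose, had 30.1 CPM (gilteritinib) and 46.3 CPM (vehicle) in ketogenic libraries, against 66.0 CPM (gilteritinib) and 58.7 CPM (vehicle) in standard libraries. It was lower in both arms, with log2 fold changes of -1.13 under gilteritinib and -0.34 under vehicle, and was called at -0.72 (SE 0.14, edgeR adjusted p = 0.00296), with an adjusted p of 0.0532 by DESeq2. TXNIP, the other well known target of the same glucose sensors, was not called, at 379 CPM (gilteritinib) and 325 CPM (vehicle) against 415 CPM (gilteritinib) and 275 CPM (vehicle), with the arms pointing opposite ways. None of the other 4 tested members of that list was called.

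Among 12 tested ketone body enzymes and transporters 1 was called, BDH1 (chromosome 3, 197509783 to 197573323), which interconverts beta-hydroxybutyrate and acetoacetate. It had 19.9 CPM (gilteritinib) and 21.8 CPM (vehicle) on the ketogenic diet, against 28.3 CPM (gilteritinib) and 34.4 CPM (vehicle) on the standard diet, a log2 fold change of -0.59 (SE 0.14, edgeR adjusted p = 0.0240). The groups did not overlap. The BDH1 call was lost with RLE scaling and in the fit of all 8 libraries (edgeR adjusted p = 0.105), and DESeq2 gave BDH1 no adjusted p. OXCT1, which commits ketone bodies to oxidation, was not called, at 40.75 CPM (gilteritinib) and 67.5 CPM (vehicle) against 48.5 CPM (gilteritinib) and 86.0 CPM (vehicle). The monocarboxylate transporter gene SLC16A1 was at 0.00 (SE 0.11), and the acetoacetyl-CoA thiolase ACAT1 at 0.03 (SE 0.11). No member of the citric acid cycle list was called (24 tested, median -0.09, 20 negative).

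**Figure D3:**
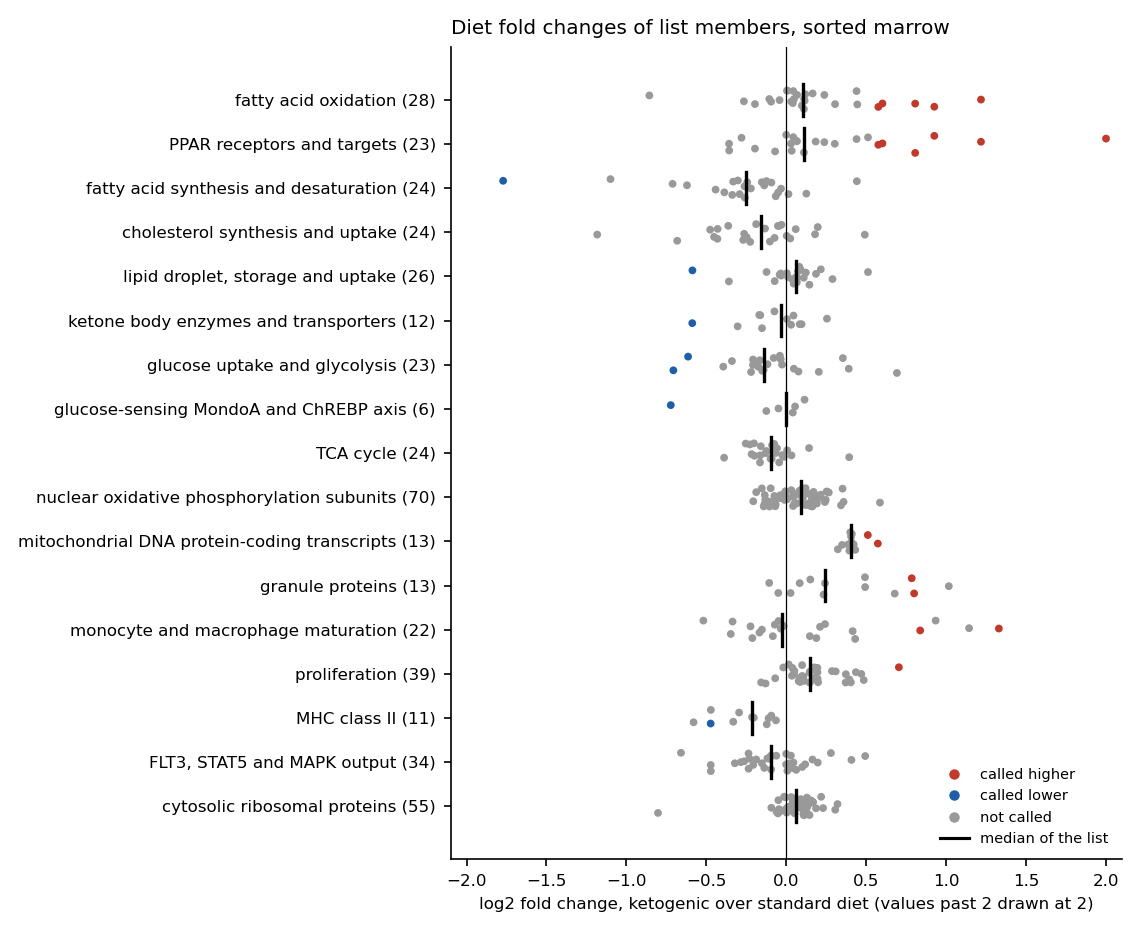
Log2 fold change for ketogenic over standard diet of each tested member of 17 gene lists in sorted marrow, with the number tested in brackets, red for called higher, blue for called lower, grey for not called and a black bar at the list median. Medians lie between -0.25 for fatty acid synthesis and 0.41 for mitochondrial DNA transcripts, and PDK4, past the axis, is drawn at its edge.

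Promoters of these genes were searched for the sequences that the factors named above are known to bind, in windows of 250 bases before to 50 after the transcription start, on both strands (RefSeq, GRCh38.p14, 35116 promoters). A PPAR-type element, taken as AGGNCA repeated with 1 base between, stood in 0.31% of all promoters. A ChoRE-type pair, CACGNG and CNCGNG with 5 bases between, stood in 0.501%, and an SREBP-type element, TCACNCCAC, in 1.13%. No called gene with a promoter in the table held any of them, 22 of the 48 higher and 15 of the 21 lower having one, which says nothing about sites elsewhere. The promoters of SCD and ARRDC4 are shown as those of the called desaturase and glucose-response genes, and they were picked after their values were seen. Capitals mark CCAAT boxes in SCD and the E-box CACGTG in ARRDC4, motifs that were not part of the planned search. CCAAT also occurs, unmarked, in the ARRDC4 window. CCAAT stood at least once in 34.6% of promoters and at least 2 times, as in SCD, in 10.8%, and CACGTG stood in 7.26%. The SCD window is chr10:100346983-100347282 and the ARRDC4 window chr15:97960453-97960752, both on the plus strand and written 5′ to 3′.
SCD: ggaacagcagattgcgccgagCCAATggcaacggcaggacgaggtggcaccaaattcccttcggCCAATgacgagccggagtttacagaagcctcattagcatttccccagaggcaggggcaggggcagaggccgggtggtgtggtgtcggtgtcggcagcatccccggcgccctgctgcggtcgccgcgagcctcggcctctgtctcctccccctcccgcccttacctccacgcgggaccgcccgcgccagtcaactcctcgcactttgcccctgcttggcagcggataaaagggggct
ARRDC4: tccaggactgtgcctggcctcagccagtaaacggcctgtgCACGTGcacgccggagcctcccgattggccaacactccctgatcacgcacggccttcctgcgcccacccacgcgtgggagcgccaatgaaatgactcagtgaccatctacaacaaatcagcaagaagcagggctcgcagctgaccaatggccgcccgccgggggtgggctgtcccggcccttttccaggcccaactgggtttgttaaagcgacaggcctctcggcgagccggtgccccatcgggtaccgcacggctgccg

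Transcripts of the mitochondrial genome took a larger share of the counts on the ketogenic diet. The share was 12.97% (gilteritinib) and 11.8% (vehicle) in the ketogenic libraries, against 10.2% (gilteritinib) and 9.28% (vehicle) in the standard libraries. All 13 protein-coding transcripts had positive fold changes under each scaling. They lay between 0.32 and 0.57 with a median of 0.41, and the median was 0.36 with library totals as scaling. In 12 of the 13 the groups did not overlap, against 24.6% of all tested genes. The 13 make up most of the mitochondrial share of each library, so they are not 13 separate readings. The test called 2 of them higher, against 0.342% of all tested genes. MT-ATP8, a small subunit of ATP synthase (mitochondrial chromosome, 8366 to 8572), had 334 CPM (gilteritinib) and 266 CPM (vehicle) against 228 CPM (gilteritinib) and 176 CPM (vehicle), a log2 fold change of 0.57 (SE 0.10, edgeR adjusted p = 0.00113). MT-ND4L, a subunit of complex I (10470 to 10766), had 1114 CPM (gilteritinib) and 1018 CPM (vehicle) against 880 CPM (gilteritinib) and 636 CPM (vehicle), a log2 fold change of 0.51 (SE 0.11, edgeR adjusted p = 0.0132). The most abundant transcript, MT-CO1, the core subunit of cytochrome oxidase, was not called, at 27046 CPM (gilteritinib) and 23106 CPM (vehicle) against 20802 CPM (gilteritinib) and 17247 CPM (vehicle).

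None of 70 nuclear subunits of oxidative phosphorylation was called, at a median log2 fold change of 0.09, and none of 20 tested genes of mitochondrial transcription and genome upkeep, at -0.03. Among the 48 higher calls, 13 were nuclear copies of mitochondrial sequence, with log2 fold changes of 0.47 to 0.79. Of these, 6 lie on chromosome 1 between 629062 and 634922, and 3 on chromosome 5. Such copies are close to identical to the mitochondrial genome, and reads from one can be counted to the other, so their values are uncertain, as are those of the overlapping genes MT-ATP8 and MT-ND4L. In the libraries labelled liver the median of the 13 transcripts was -0.06. The difference between labels was not called for any gene by edgeR, with adjusted p = 0.0734 for MT-ATP8, whereas DESeq2 called it for MT-ATP8, MT-ND4L and the nuclear copy MTND4LP30. The mitochondrial share moved with diet beside the other calls, and its part in them was not tested; without mitochondrial transcripts 64 genes were called.

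**Figure D4:**
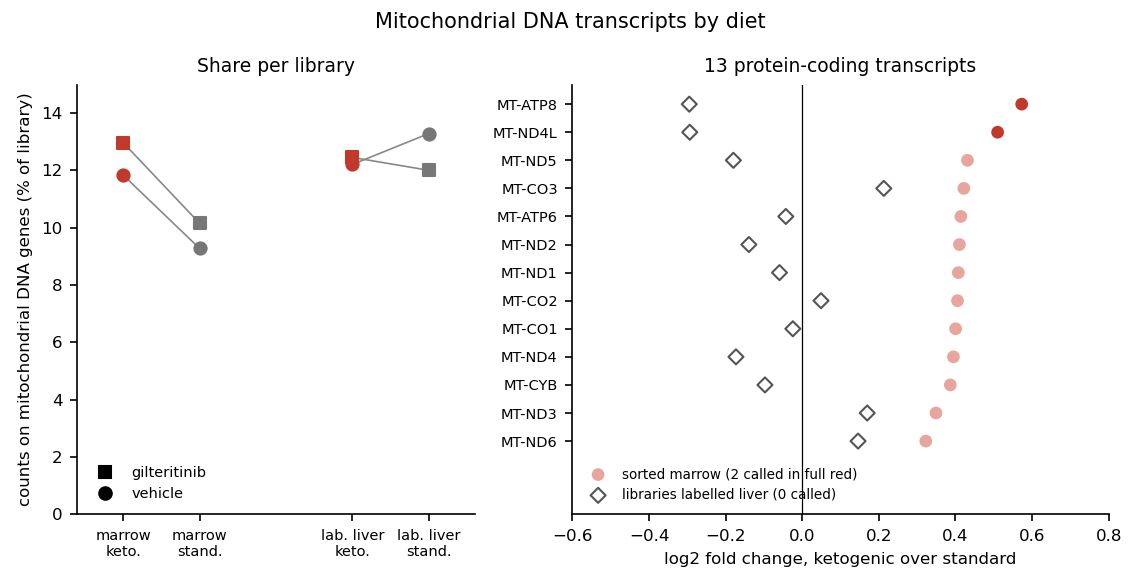
Left, counts on mitochondrial DNA genes as a percentage of each library (vertical axis from 0), ketogenic in red and standard in grey, squares for gilteritinib and circles for vehicle, for sorted marrow and the libraries labelled liver. Right, log2 fold change of the 13 protein-coding transcripts in marrow (filled circles, all to the right of 0) and in the libraries labelled liver (open diamonds, on both sides of 0).

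The granule genes MPO and MS4A3 were higher on the ketogenic diet. Of 13 tested granule protein genes 2 were called higher, against 0.342% of all tested genes, and none lower, at a median of 0.24. MPO, the myeloperoxidase of azurophil granules, had 93.7 CPM (gilteritinib) and 39.2 CPM (vehicle) in ketogenic libraries, against 43.2 CPM (gilteritinib) and 28.8 CPM (vehicle) in standard libraries. MS4A3, a membrane protein of granulocyte-monocyte precursors, had 92.5 CPM (gilteritinib) and 39.8 CPM (vehicle) against 40.8 CPM (gilteritinib) and 29.9 CPM (vehicle). For both genes the ketogenic library with gilteritinib stood far above the other 3 and the groups overlapped. The log2 fold changes were 0.78 for MPO (SE 0.13, edgeR adjusted p = 0.000544) and 0.80 for MS4A3 (SE 0.14, edgeR adjusted p = 0.000827). DESeq2 called MPO (adjusted p = 0.0110) but not MS4A3 (adjusted p = 0.988). In the gilteritinib arm the ratio of MPO was 1.12 and that of MS4A3 1.18, and in the vehicle arm they were 0.44 and 0.41. A test of the difference between arms, with the spread taken from the libraries labelled liver, did not call MS4A3 (edgeR adjusted p = 0.664) or MPO (edgeR adjusted p = 0.821). The serine proteases PRTN3 (0.68, SE 0.21), ELANE (0.49, SE 0.12) and CTSG (0.08, SE 0.11) were not called, nor was LYZ (0.24, SE 0.11).

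Of 22 tested genes of monocyte and macrophage maturation, at a median of -0.03, none was called lower. Against 0.342% of all tested genes, 2 of the 22 were called higher. These were the inhibitory receptor LILRB3 (log2 fold change 1.33, SE 0.27, edgeR adjusted p = 0.00357) and the membrane protein MCEMP1 (0.84, SE 0.17, edgeR adjusted p = 0.00426). LILRB3 had 9.10 CPM (gilteritinib) and 3.46 CPM (vehicle) against 3.10 CPM (gilteritinib) and 1.66 CPM (vehicle), and close relatives in its gene cluster may share its reads. ITGAM, CSF1R and CD86, surface receptors of maturing myeloid cells, were not called, at -0.22, -0.08 and -0.17. Of 11 tested genes of MHC class II presentation 1 was called, lower, against 0.15% of all tested genes. All 11 fold changes were negative under each scaling, with a median of -0.21. Only 7 of the 11 had the same sign in both drug arms, against 56.2% of all tested genes. HLA-DRA had 132 CPM (gilteritinib) and 122 CPM (vehicle) against 210 CPM (gilteritinib) and 149 CPM (vehicle), a log2 fold change of -0.47 (SE 0.11, edgeR adjusted p = 0.0240), and its groups did not overlap. HLA-DRA was not called by DESeq2 (adjusted p = 0.187) or with RLE scaling in edgeR, and without 1 library its value was -0.66 (either vehicle library) or -0.28 (either gilteritinib library). The invariant chain gene CD74 was at -0.09 (SE 0.11).

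Proliferation genes were largely not called. Of 39 tested 1 was called, MKI67, which encodes the Ki-67 antigen of cycling cells. MKI67 had 59.5 CPM (gilteritinib) and 102 CPM (vehicle) in the ketogenic libraries, against 30.4 CPM (gilteritinib) and 72.9 CPM (vehicle) in the standard libraries. The ketogenic library was the higher one within each drug arm, while the diet groups overlapped across arms (log2 fold change 0.70, SE 0.12, edgeR adjusted p = 0.000533). Of the 39 fold changes 35 were positive and 4 negative, at a median of 0.15. With library totals as scaling 32 were positive and 7 negative. Over all tested genes 50.6% were positive. By arm, the list median was 0.31 under gilteritinib and -0.0038 under vehicle, and 20 members had the same sign in both arms. MCM4, a subunit of the replicative helicase, was at 0.08 (SE 0.10). TOP2A, the mitotic topoisomerase, was at -0.16 (SE 0.11) and was 1 of the 4 negative members. In bulk RNA a change in the share of cells in a state and a change in RNA per cell cannot be told apart.

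Members of the pathway that gilteritinib inhibits were not called by diet. None of 34 tested genes of FLT3, STAT5 and MAPK output passed, and FLT3 itself had 476 CPM (gilteritinib) and 470 CPM (vehicle) in ketogenic libraries, against 600 CPM (gilteritinib) and 552 CPM (vehicle) in standard libraries (log2 fold change -0.28, SE 0.11, edgeR adjusted p = 0.338). MYC had 136 CPM (gilteritinib) and 121 CPM (vehicle) against 147 CPM (gilteritinib) and 97.5 CPM (vehicle), with the arms pointing opposite ways. No member was called in the lists of LXR targets (8 tested), amino acid transporters (17), NRF2, glutathione and iron (22), insulin signalling with FOXO targets (25), glucocorticoid targets (13), circadian clock (13), NF-kB (19), interferon response (30), cytosolic ribosomal proteins (55) or endoplasmic reticulum chaperones (20). A missed threshold does not show that these genes were level: the median SE was 0.11 above a mean log2 CPM of 6 and 0.58 below 0.

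The remaining called genes belonged to no large group. IMPA2, an inositol monophosphatase, had 79.2 CPM (gilteritinib) and 55.4 CPM (vehicle) against 41.9 CPM (gilteritinib) and 30.6 CPM (vehicle), a log2 fold change of 0.89 (SE 0.12, edgeR adjusted p = 5.59e-06). FCGRT, the neonatal Fc receptor, had 172 CPM (gilteritinib) and 97.5 CPM (vehicle) against 104 CPM (gilteritinib) and 56.2 CPM (vehicle), a log2 fold change of 0.76 (SE 0.11, edgeR adjusted p = 1.78e-05). IMPA2 was higher in both ketogenic libraries than in either standard one, and FCGRT was higher within each arm with overlap across arms. Other rises were in the ferritin receptor SCARA5 (1.03), SMCO4 (0.79), the Wnt co-receptor LRP5 (0.77), PHACTR1 (0.74), which binds actin and protein phosphatase 1, and C1orf162 (0.72). The leukocyte antigen CD52 (0.78) and the immunoglobulin constant gene IGKC (0.72) also rose. The lymphoid marker sum, given above and mostly NKG7, was higher on the ketogenic diet in each drug arm. Of its 13 markers 5 were tested, with 3 positive and 2 negative fold changes and none called. The part of that sum in these rises was not tested. PHGDH, the first enzyme of serine synthesis, had a log2 fold change of 0.50 (SE 0.11, edgeR adjusted p = 0.0240). The PHGDH call was lost with DESeq2 (adjusted p = 0.238), limma-voom (0.0698), RLE scaling (0.0629) and library totals (0.0958), and the value was 0.78 without either vehicle library and 0.25 without either gilteritinib library. In its list 22 of 24 tested genes of the stress response and serine synthesis were not called. SCARA5 and IGKC were not called with limma-voom (adjusted p = 0.0818 and 0.120), RLE scaling or library totals. Also higher, and named after their values were seen, were the inflammasome sensor NLRC4 (1.43, SE 0.28) and ST14, a membrane serine protease (0.67, SE 0.12).

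Among the other falls were the phosphodiesterase PDE3A (-0.75), the nuclear factor TOX (-0.68), the growth inhibitor BTG2 (-0.64) and the receptor kinase TGFBR1 (-0.55). They were the single calls in lists of 8 tested phosphodiesterases, 25 myeloid transcription factors, 21 growth regulators and 18 TGF-beta genes. TGFBR1 had 54.5 CPM (gilteritinib) and 56.0 CPM (vehicle) in ketogenic libraries, against 79.3 CPM (gilteritinib) and 82.8 CPM (vehicle) in standard libraries, so the 2 libraries of each diet were nearly level and the groups lay apart. The small GTPase RAP2A (-0.53), the oxysterol receptor GPR183 (-0.53), the sorting receptor SORT1 (-0.50) and DDIT4, an inhibitor of mTORC1 signalling (-0.47), were also lower. The groups did not overlap for any of these 4, nor for 49 of the 69 called genes and 24.6% of all tested genes. PDE3A, TOX, BTG2, SORT1 and DDIT4 were not called with limma-voom (adjusted p of 0.0597 to 0.0818) or RLE scaling, GPR183 not with DESeq2 or RLE scaling, and TGFBR1 not with DESeq2 (adjusted p = 0.0536). The fall of PDE3A was -1.20 in the gilteritinib arm and -0.35 in the vehicle arm.

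The 4 libraries labelled liver share no library with the marrow set and gave a second reading of the same diet. Whether they came from the same animals as the marrow libraries is not known here, so the 2 readings may not be independent. Hepatocyte markers summed to 1.32 to 2.06 CPM there and leukaemia markers to 3518 to 8486 CPM, so the human counts, like those of marrow, came with almost no hepatocyte transcripts. Tissue label and batch code coincide in all 8 libraries and cannot be told apart. In these libraries 51 of 14092 genes were called higher on the ketogenic diet, or 0.362%, and 92 lower, or 0.653%. Of the 48 genes higher in marrow, all were tested there, 36 had the same direction and 12 were also called higher, which is 25.0% of the 48. Of the 21 genes lower in marrow, 20 were tested there, 19 had the same direction and 10 were also called lower. Over all 13696 genes tested under both labels, 59.003% had the same direction.

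The shared rises were PDK4, CPT1A, SLC25A20, ACAA2, ACADVL, ECH1, IMPA2, MCEMP1, MS4A3, LRP5, FCGRT and C1orf162. CPT1A was at 0.54 (SE 0.14) in the libraries labelled liver, SLC25A20 at 0.86 (edgeR adjusted p = 6.09e-06) and ACAA2 at 0.80 (edgeR adjusted p = 6.09e-06). PDK4 had 29 reads (gilteritinib) and 17 reads (vehicle) in the ketogenic libraries there, against 1 read (gilteritinib) and 2 reads (vehicle) in the standard ones. The shared falls included SCD at -1.05 (edgeR adjusted p = 3.05e-08), SLC2A1 at -0.74, ARRDC4 at -0.62, HLA-DRA at -0.60, PDE3A, GPR183, SORT1, SDC2 and LINC01819. HK2 was not called there, at -0.20 (edgeR adjusted p = 0.686), and MKI67 was at -0.0066. Of the 15 called genes of mitochondrial sequence, 7 had the same direction and 8 the opposite there, and none was called. The test of the diet effect in marrow minus that in the libraries labelled liver called 0 of 13696 genes by edgeR, or 0%, 3 by DESeq2 and 0 by limma-voom, with 647 genes at an unadjusted p under 0.05 by edgeR. Leaving out 1 marrow library at a time raised that count to 10 without either vehicle library, 4 without standard diet with gilteritinib and 6 without ketogenic diet with gilteritinib.

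**Figure D5:**
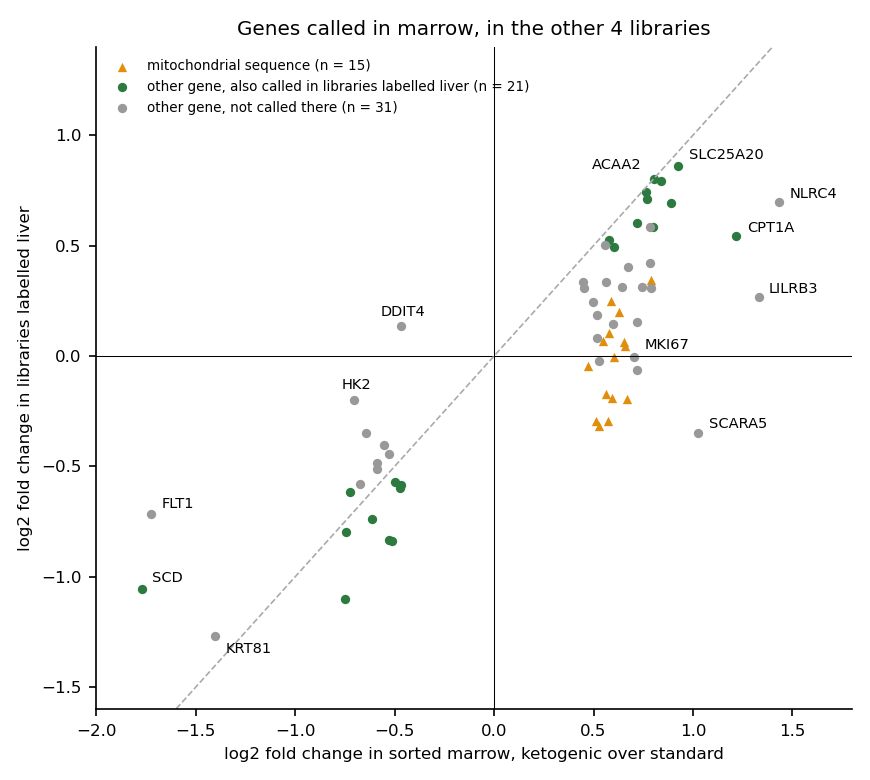
Log2 fold change for diet in the libraries labelled liver (vertical axis) against sorted marrow (horizontal axis) for the genes called in marrow, with triangles for mitochondrial sequence, green circles for other genes also called in the libraries labelled liver and grey circles for the rest; the dashed line marks equal change, PDK4 lies outside the axes and 1 gene was not tested there. All green circles lie in the lower left or upper right, and the triangles lie on both sides of 0 on the vertical axis.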

How the data were processed

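The deposited table holds raw gene counts made by the authors, whole numbers with a different total per library and no normalization, for 60676 Ensembl identifiers with symbols. Per the submitters' processing notes, STAR 2.7.3a and GRCh38 were used. The counter, its gene models, the use of strand and the handling of mouse reads were not given in the sources used here. Antisense and overlapping genes are therefore uncertain. Coordinates came from GENCODE 29, which lists 96.4% of these IDs.

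Titles gave the groups. Genes with at least 10 counts in 2 or more of the 4 marrow libraries were tested in edgeR 4.0.16 (R 4.3.3) by the bias-adjusted quasi-likelihood method with robust estimates, TMM scaling, and terms for drug and diet. The standard error is the size of the log2 fold change over the root of F. CPM values are TMM-scaled, except the marker sums, which are per 1e6 counts of the library total, and log2 CPM used a prior count of 2. The shared spread had a median weight of 47.2 prior degrees of freedom. The libraries labelled liver were fitted in the same way, and differences between labels or drug arms used all 8 libraries with separate terms per label. The test between drug arms was added after the data had been seen. Intervals cover counting error only, since they were computed from the summed counts of each diet. Reads carry no molecular identifiers, so repeat copies of a molecule could not be told apart. Counts were simulated for the marrow diet comparison (13632 genes, 189 of them changed), with the spread set by a common dispersion of 0.0082. In them 40.9% of 1.5-fold and 80.2% of 2-fold changes were found, with 2.54% false calls. These rates apply to such counts, and the share of false calls among the genes called in the real marrow libraries was not measured.

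The libraries, the 40 gene lists (883 symbols, 879 found) and the tests were chosen with earlier results of these data known. Named genes were the 15 largest rises and 15 largest falls that were called, lay on 1 side in both arms and averaged 2 or more in log2 CPM, without clone names, LINC genes, small RNAs, antisense genes and numbered pseudogenes, plus called list members, a set list of 28 genes and up to 4 abundant uncalled members of a list. CPT2, PPARD, PPARA, RXRA, SREBF1, ACADM, ACAT1, SDC2, the receptors of maturing myeloid cells and the uncalled granule genes were named after their values were seen. The alternatives tried were limma-voom (limma 3.58.1), DESeq2 1.42.0, further scalings, filters and fits, and leaving out each library. Results for some genes are not reported here.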

Additional observations from a re-analysis of the deposited data

Results flagged for a closer look

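For 4 genes, the test called a difference in the diet effect between the drug arms of marrow. The test was an edgeR fit of all 8 libraries with a drug by diet term in marrow, chosen after the data had been seen, whose spread comes from the libraries labelled liver alone. It called 4 of 13696 genes, with 686 at an unadjusted p under 0.05. None of the 4 was called for diet over both arms, and each had opposite diet ratios in the arms.

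JCHAIN, the joining chain of secreted antibodies, had 86 reads (gilteritinib) and 30 reads (vehicle) on the ketogenic diet, against 21 reads (gilteritinib) and 159 reads (vehicle) on the standard diet. The log2 diet effect in the gilteritinib arm minus that in the vehicle arm was 3.03 (SE 0.59, edgeR adjusted p = 0.00201). AL049872.1 followed the same pattern, with 66 reads (gilteritinib) and 21 reads (vehicle) against 10 reads (gilteritinib) and 131 reads (vehicle), a difference of 3.95 (SE 0.70, edgeR adjusted p = 0.000253). RHEX, a regulator of erythroid cell expansion, had 326 reads (gilteritinib) and 69 reads (vehicle) against 80 reads (gilteritinib) and 185 reads (vehicle), a difference of 2.05 (SE 0.43, edgeR adjusted p = 0.00829). MYO7B, an unconventional myosin, went the other way, with 11 reads (gilteritinib) and 51 reads (vehicle) against 42 reads (gilteritinib) and 50 reads (vehicle), a difference of -3.35 (SE 0.71, edgeR adjusted p = 0.00829). Library totals differ, and in TMM-scaled CPM the ketogenic library with gilteritinib was the highest of the 4 for RHEX, at 16.9 CPM, and the lowest for MYO7B, at 0.572 CPM.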

How the results depend on the processing

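All 69 genes called in marrow kept their direction under the 15 alternatives in which they could be fitted. The alternatives reuse the same counts, and all 69 lay on the same side in both drug arms, so this only describes them. The count of 69 was 69 with the older quasi-likelihood fit, 70 with counts thinned to the smallest library, 64 without mitochondrial transcripts, 59 at a mean count of at least 50, 57 with library totals as scaling and 49 with limma-voom. It was 42 with RLE scaling, 29 with DESeq2, 22 in the fit of all 8 libraries, 1 (SCD) with no filter on low counts and 0 without the drug term, where 134 genes had an unadjusted p under 0.05. Leaving out 1 marrow library gave 11 to 135 calls, which takes the remaining lone library to be as variable as the rest. DESeq2 shared 27 and limma-voom 46 calls with the 69, and RLE scaling 42. In the libraries labelled liver 143 genes were called, 12 with DESeq2, 129 with limma-voom and 141 with library totals. The difference between labels was called for 0 genes by edgeR and 3 by DESeq2, and for 0 to 10 when 1 library was left out. The causes of these shifts were not tested. The fit called 2 genes below a mean log2 CPM of 0, where the median SE was 0.58, and 24 above 6, where it was 0.11. No paired analysis was possible because each group has 1 library and no replicate number pairs libraries beyond the drug, which is already a term.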

Other observations

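Some called genes had their diet difference mostly in 1 drug arm. IGKC had 16.01 CPM (gilteritinib) and 21.8 CPM (vehicle) on the ketogenic diet, against 6.73 CPM (gilteritinib) and 16.9 CPM (vehicle) on the standard diet. ASS1, which makes argininosuccinate in arginine synthesis, had 220 CPM (gilteritinib) and 346 CPM (vehicle) against 137 CPM (gilteritinib) and 298 CPM (vehicle). The helicase gene RECQL4 had 38.8 CPM (gilteritinib) and 46.2 CPM (vehicle) against 19.4 CPM (gilteritinib) and 38.5 CPM (vehicle). For these 3 genes the log2 ratio was 1.24, 0.69 and 1.00 in the gilteritinib arm and 0.37, 0.21 and 0.26 in the vehicle arm, and the difference between arms was not called. None of the 3 was called with limma-voom, RLE scaling or library totals. They were picked after their values were seen.

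At low level, a receptor and a keratin were called lower; both were picked after their values were seen. FLT1, a receptor for vascular endothelial growth factor, had 0.624 CPM (gilteritinib) and 0.822 CPM (vehicle) on the ketogenic diet, against 2.51 CPM (gilteritinib) and 2.33 CPM (vehicle) on the standard diet. KRT81, a hair keratin, had 2.29 CPM (gilteritinib) and 0.528 CPM (vehicle) against 6.33 CPM (gilteritinib) and 1.21 CPM (vehicle). Neither was called by limma-voom (adjusted p = 0.142 for FLT1 and 0.0973 for KRT81).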
